A study of Sus scrofa with 12 samples.

Results

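The secreted ADAMTS proteases and their TIMP inhibitors were examined in the Semimembranosus (SM) muscle of Italian Large White pigs. The members were the rows of the gene count matrix whose Ensembl identifier carries, in pig Ensembl gene names, one of 10 symbols: ADAMTS1, ADAMTS2, ADAMTS4, ADAMTS5, ADAMTS9, ADAMTS15, TIMP1, TIMP2, TIMP3 and TIMP4. An identifier with counts was found for 9 of these 10 symbols, of 25880 genes in the matrix. TIMP2 had no identifier under its name and was not analysed here. ADAMTS1 was chosen by its group difference in these same counts, low against high IMF, and the other members were listed as its relatives, so the group difference of ADAMTS1 is given as a description with no test.

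The study compared 6 pigs with high intramuscular fat (IMF) with 6 pigs with low IMF, chosen as unrelated extremes of one purebred population kept in the same environment on the same diet. No pig received a treatment, and each pig gave 1 library. Pigs 1 to 6 form the high IMF group, labelled 234 to 244 days old, and pigs 7 to 12 form the low IMF group, labelled 229 to 249 days old. Each group is labelled with 3 females and 3 males, and the study's methods describe the males as castrated. The matrix holds 131048805 to 178013997 counts per pig. The counts of the 2 named Y chromosome genes went against the labelled sex in 6 pigs: pigs 3 and 5 of the high IMF group and pigs 7, 8, 9 and 10 of the low IMF group. The summed Y count was at least 3734 in pigs 3, 4, 6, 9, 10 and 11 and at most 6 in the other pigs. Whether the sex labels or the links of libraries to pigs were wrong was not tested, so the group and age labels are uncertain too. Each group difference below was also computed without the 6 pigs that went against their label. That leaves only pigs 1, 2, 4 and 6 of high IMF against pigs 11 and 12 of low IMF, so values from it are rough. The 4 skeletal muscle fibre genes with an identifier summed to 31578 to 61149 CPM per pig (CPM, counts scaled to one common library total), and the summed adipocyte markers overlapped between the groups, at 349 to 556 CPM in high IMF and 184 to 665 CPM in low IMF. PLIN4 was the largest part of the adipocyte sum, with a mean of 254 CPM in high IMF and 283 CPM in low IMF, so the sum mainly follows that gene.

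ADAMTS proteases are zinc-dependent enzymes that cells secrete into the extracellular matrix, where thrombospondin type 1 repeats hold them close to their substrates. ADAMTS1, ADAMTS4, ADAMTS5, ADAMTS9 and ADAMTS15 cleave the large chondroitin sulphate proteoglycans versican and aggrecan, whereas ADAMTS2 removes the amino-terminal propeptide of fibrillar procollagens. TIMPs are small secreted proteins that block the active site of metalloproteinases, and TIMP3, which binds to the matrix itself, is the family member that best inhibits ADAMTS4 and ADAMTS5. In muscle these proteins act on the connective tissue around fibres, vessels and fat cells.

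The genes lie on 6 chromosomes of Sscrofa11.1, by RefSeq annotation matched by symbol. ADAMTS1 (ENSSSCG00000012026) is at chr13:190277175-190285957 on the minus strand, and ADAMTS5 (ENSSSCG00000012027), its neighbour on the same strand, is at chr13:190353019-190413110. ADAMTS9 (ENSSSCG00000011496, chr13:46033753-46209238) and TIMP4 (ENSSSCG00000033000, chr13:68179803-68191199) are on the same chromosome. ADAMTS2 (ENSSSCG00000024043) is at chr2:79182901-79406879, ADAMTS4 (ENSSSCG00000006359) at chr4:89260354-89269238 and ADAMTS15 (ENSSSCG00000015250) at chr9:57127527-57152550. TIMP1 (ENSSSCG00000012277) is at chrX:42103251-42106289 and TIMP3 (ENSSSCG00000031866) at chr5:12185816-12242599. The 3 TIMP genes overlap synapsin genes on the opposite strand, and ADAMTS1, ADAMTS2 and ADAMTS9 overlap unnamed opposite-strand loci. The libraries were stranded, but the strand option of the counting is not given in the sources used here, so reads of overlapping genes cannot be told apart. SYN1, which overlaps TIMP1, had 3.82 to 8.85 CPM, SYN3 around TIMP3 had at most 0.0644 CPM, and SYN2 around TIMP4 was at 0 counts in every pig.

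Levels between genes were compared as CPM divided by the exonic length in kilobases. TIMP3 was the most abundant member, at 42.4 ± 6.06 CPM per kb (SD, n = 12 pigs). ADAMTS1 was next at 8.49 ± 3.28 CPM per kb, and TIMP3 was above it in 12 of 12 pigs, 5.0 times as high on average. TIMP1 stood at 8.40 ± 6.92 CPM per kb and could not be ordered against ADAMTS1, which was higher in 8 of 12 pigs. The per-length level of TIMP1 is uncertain, because its incomplete RefSeq model spans only 716 exonic bases.

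ADAMTS9 (3.01 ± 0.77 CPM per kb), ADAMTS4 (2.91 ± 3.25) and ADAMTS2 (2.67 ± 0.66) followed at similar mean levels. ADAMTS9 was above ADAMTS4 in 9 of 12 pigs, and ADAMTS4 was above ADAMTS2 in 4 of 12 pigs, so these neighbours did not differ beyond the spread between pigs. Lower came ADAMTS5 at 1.12 ± 0.52 CPM per kb, ADAMTS15 at 0.685 ± 0.139 and TIMP4 at 0.501 ± 0.202. ADAMTS2 exceeded ADAMTS5 in 12 of 12 pigs, ADAMTS5 exceeded ADAMTS15 in 11, and ADAMTS15 exceeded TIMP4 in 9. The inhibitors thus took both ends of the order.

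**Figure D1:**
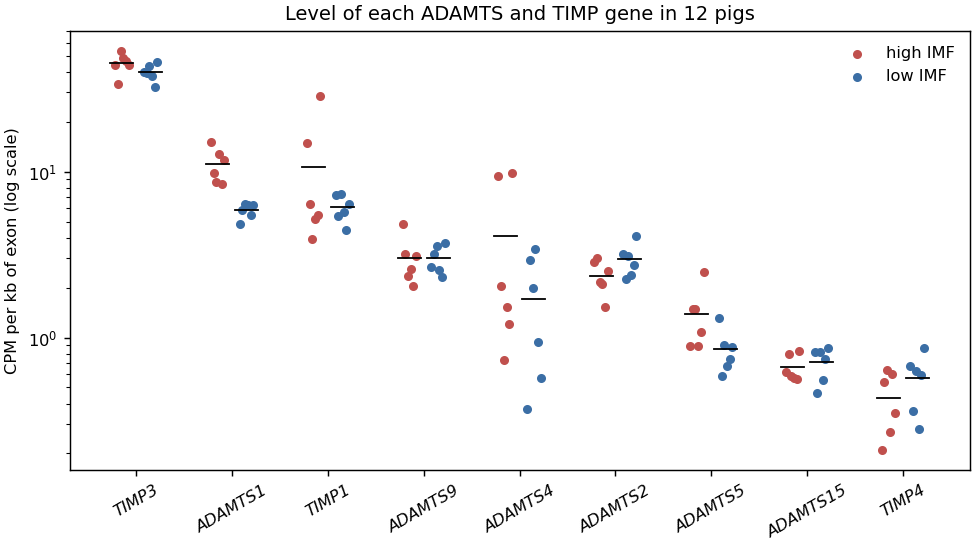
Level of each ADAMTS and TIMP gene in CPM per kb of exon (vertical axis, log scale), 1 point per pig, high IMF in red and low IMF in blue, with a black line at each group mean. TIMP3 lies above all other members in every pig, the ADAMTS1 points of the groups are separate, and ADAMTS4 spans the widest range.

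Among 19 ADAMTS proteases with an identifier and counts, ADAMTS1 ranked 1st per kb. ADAMTS9, ADAMTS4 and ADAMTS2 took the next ranks by the mean over 12 pigs. The place of ADAMTS4 rests on pigs 1 and 6, since without them it averaged 1.57 ± 1.02 CPM per kb (SD, n = 10), below ADAMTS2 at 2.66 ± 0.73 and near ADAMTS20 at 1.59 ± 0.53. ADAMTS20, the highest of the 13 proteases that were not members, had 1.70 ± 0.54 CPM per kb and stood above ADAMTS5, and ADAMTS12 at 0.992 ± 0.497 stood between ADAMTS5 and ADAMTS15. ADAMTS13, the protease of von Willebrand factor made mainly in liver, was lowest with 0 to 9 counts per pig.

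The members differed widely in how much they varied between pigs. Over the 12 pigs, ADAMTS4 ranged 26.5-fold, TIMP1 7.29-fold, ADAMTS5 4.22-fold, TIMP4 4.14-fold and ADAMTS1 3.12-fold, whereas TIMP3 ranged only 1.63-fold. The edgeR biological coefficient of variation, which is fitted with the group means taken out, placed ADAMTS4 at percentile 96.1 of the 14262 genes tested, TIMP1 at 87.7, TIMP4 at 78.1, ADAMTS1 at 31.2 and TIMP3 at 17.5. The most abundant inhibitor, TIMP3, was therefore among the steadier members within groups, and the aggrecanase ADAMTS4 was the most variable. The place of ADAMTS1 is no separate result, because a gene chosen for its group difference tends to vary little within groups.

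ADAMTS1 was higher in the high IMF group than in the low IMF group. Its level was 60.8, 39.2, 34.8, 51.1, 33.9 and 47.2 CPM in pigs 1 to 6 and 19.5, 23.5, 25.6, 25.1, 22.001 and 25.3 CPM in pigs 7 to 12. The lowest high IMF pig was above the highest low IMF pig, so the groups did not overlap, as for 0.659% of the 14262 genes tested, but this was known when the gene was chosen. The mean was 44.5 ± 10.5 CPM in high IMF and 23.5 ± 2.39 CPM in low IMF (SD, n = 6 each), a log2FC of low over high IMF of −0.92 (SE 0.14). The coefficient of variation was 23.6% in high IMF and 10.2% in low IMF, the widest spread being among the pigs with the higher level. The log2FC was −0.76 without pigs 1 and 6 and −1.06 without the 6 pigs whose Y counts went against their label. In bulk muscle, fewer cells of a type and less RNA per cell cannot be told apart.

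The 8 relatives were tested in the same edgeR quasi-likelihood fit over all genes, with Benjamini-Hochberg adjusted p-values. Calls needed an adjusted p no larger than 0.05 together with an absolute log2FC of 0.58 or more. By this rule 0 of the 8 relatives were called, as were 0% of the 14262 genes tested, and the adjusted p of the relatives ran from 0.427 to 0.99. DESeq2, which called 0.39% of the genes it tested, and limma-voom called 0 of the 8 as well. At an unadjusted p of at most 0.05, 1 of 8 relatives passed, ADAMTS5, against 10.4% of all genes. Of the 8, 5 were on average higher in high IMF, against 51.6% of all genes, and 3 in low IMF, with a median log2FC of −0.09 against −0.01 over all genes tested.

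**Figure D2:**
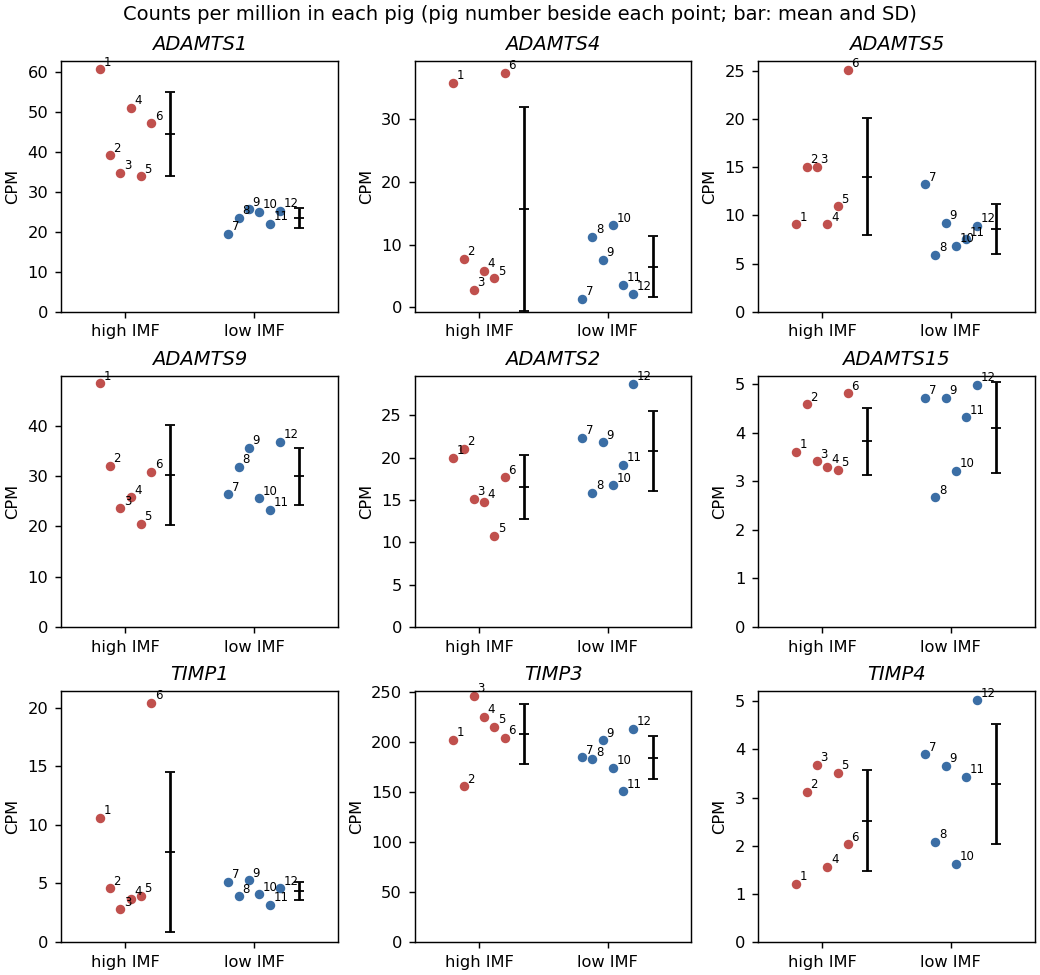
CPM of each ADAMTS and TIMP gene (vertical axes from 0 or, for ADAMTS4, just below it) in each pig, high IMF in red and low IMF in blue, with pig numbers beside the points and a bar for the mean and SD of 6 pigs. ADAMTS1 separates the groups, whereas pigs 1 and 6 alone set the high IMF means of ADAMTS4 and TIMP1 apart.

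ADAMTS5, the aggrecanase encoded next to ADAMTS1, had 9.09, 15.02, 15.1, 9.06, 10.9 and 25.1 CPM in pigs 1 to 6 and 13.2, 5.94, 9.20, 6.83, 7.52 and 8.90 CPM in pigs 7 to 12. The groups overlapped, with 3 high IMF pigs above every low IMF pig and 4 low IMF pigs below every high IMF pig. Its log2FC was −0.71 (SE 0.26), with an unadjusted p of 0.0173 and an adjusted p of 0.427 in edgeR's test. Without pig 6, the highest, the log2FC was −0.46.

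ADAMTS4, the other main aggrecanase, had 35.8, 7.80, 2.82, 5.88, 4.63 and 37.4 CPM in pigs 1 to 6 and 1.41, 11.3, 7.59, 13.1, 3.60 and 2.17 CPM in pigs 7 to 12. Pigs 1 and 6 stood far above the other 10, whose values overlapped. The log2FC of −1.27 (SE 0.71, adjusted p = 0.549 by edgeR) was the largest of the members in size and had the largest SE. Without pigs 1 and 6 it was 0.30, the opposite direction. Without the 6 pigs whose Y counts went against their label it was −2.90 (adjusted p = 0.998 by edgeR), a fit that keeps pigs 1 and 6 and has only pigs 11 and 12 in low IMF.

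TIMP1, an inhibitor of most matrix metalloproteinases that blocks ADAMTS proteases weakly, followed the same pigs. It had 10.6, 4.57, 2.80, 3.71, 3.92 and 20.4 CPM in pigs 1 to 6, with pigs 1 and 6 again above all others, and 3.19 to 5.26 CPM in the low IMF group (median 4.32). The log2FC was −0.82 (SE 0.43, adjusted p = 0.519 by edgeR). It was −0.23 without pig 6 alone, 0.21 without pigs 1 and 6, and −1.33 without the 6 pigs whose Y counts went against their label (adjusted p = 0.998 by edgeR). THBS1, which encodes the matrix protein thrombospondin-1, was also highest in pigs 1 and 6, at 441 and 1528 CPM against 66.7 to 176 CPM in the other 10 pigs.

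The summed macrophage markers and the summed immediate early genes were also highest in pig 6, though not every gene of these lists was. The summed macrophage list was 79.9 to 185 CPM in high IMF, highest in pig 6, and 89.2 to 158 CPM in low IMF, with 8 of its 9 genes tested and 1 of them, AIF1, past an unadjusted p of 0.05 (log2FC −0.46, SE 0.20, adjusted p = 0.463 by edgeR). Of 14 immediate early genes tested, 5 were higher in high IMF and 2 in low IMF at an unadjusted p of at most 0.05, against 10.4% of all genes in either direction, and 0 were called by edgeR. The 2 higher in low IMF were FOSL2 (log2FC 0.56, SE 0.14, adjusted p = 0.342 by edgeR) and NR4A3 (1.12, SE 0.37, adjusted p = 0.427), and neither was highest in pig 6. EGR1, an early transcription factor, reached 234 CPM in pig 6 (log2FC −1.57, SE 0.62, adjusted p = 0.441 by edgeR). The part of these levels in the ADAMTS4 and TIMP1 values was not tested.

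ADAMTS9, the versican-cleaving protease of vessels and embryonic tissue, was level between the groups, at 30.1 ± 9.94 CPM in high IMF and 29.9 ± 5.65 CPM in low IMF (SD, n = 6 each). Pig 1 was highest at 48.4 CPM, and the other 11 pigs lay between 20.4 and 36.8 CPM. The log2FC was −0.01 (SE 0.19, adjusted p = 0.99 by edgeR) and changed sign when some single pigs were left out.

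ADAMTS2, the procollagen N-propeptidase, was somewhat higher in low IMF on average. It had 19.97, 21.1, 15.2, 14.8, 10.7 and 17.7 CPM in pigs 1 to 6 and 22.4, 15.8, 21.8, 16.8, 19.2 and 28.8 CPM in pigs 7 to 12. The groups overlapped, with 3 low IMF pigs above every high IMF pig. The log2FC was 0.33 (SE 0.18, adjusted p = 0.535 by edgeR). ADAMTS15, a versican-cleaving protease, had 3.23 to 4.80 CPM (median 3.51) in high IMF and 2.67 to 4.98 CPM (median 4.51) in low IMF, which overlapped, with a log2FC of 0.10 (SE 0.17, adjusted p = 0.877 by edgeR).

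TIMP3 had 202, 156, 246, 225, 215 and 204 CPM in pigs 1 to 6 and 185, 183, 202, 174, 151 and 213 CPM in pigs 7 to 12. The groups overlapped, with 3 high IMF pigs above every low IMF pig and 1 low IMF pig below every high IMF pig, and the log2FC was −0.17 (SE 0.12, adjusted p = 0.626 by edgeR). TIMP4, an inhibitor best known from heart and other muscle, had 1.21, 3.12, 3.68, 1.56, 3.51 and 2.03 CPM in pigs 1 to 6 and 3.90, 2.09, 3.66, 1.62, 3.43 and 5.02 CPM in pigs 7 to 12. Each group held both low pigs, near 1.2 to 2.1 CPM, and high pigs, at 3.1 CPM or more. The log2FC of TIMP4 was 0.38 (SE 0.32, adjusted p = 0.701 by edgeR), and 1.10 without the 6 pigs whose Y counts went against their label (adjusted p = 0.998).

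**Figure D3:**
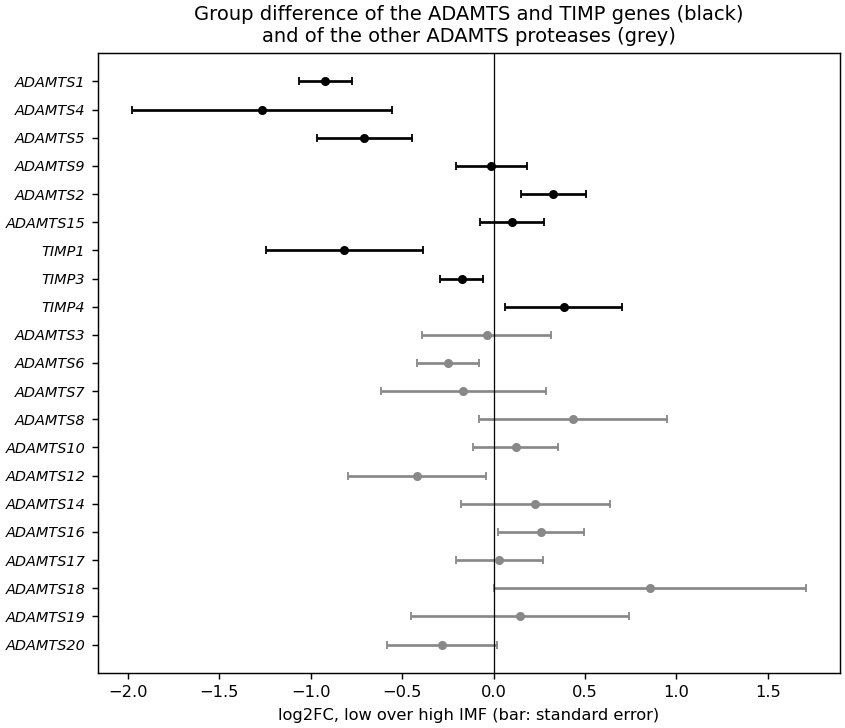
log2FC of low over high IMF (horizontal axis) with its standard error worked back from the edgeR F statistic, for the ADAMTS and TIMP members in black and the 12 other ADAMTS proteases tested in grey. ADAMTS1 has a value of −0.92 with a standard error of 0.14, whereas ADAMTS4, at −1.27, has a standard error of 0.71.

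In the other lists of the matrix system edgeR called 0 genes, as it did over all genes tested (0%). DESeq2 called 1, MMP24, against 0.39% of all the genes it tested. Over all genes tested by edgeR, 51.6% were higher in high IMF, 10.4% passed an unadjusted p of 0.05 and the median log2FC was −0.01. Of 12 other ADAMTS proteases tested, 5 were higher in high IMF and 7 in low IMF, with 0 past an unadjusted p of 0.05 and a median log2FC of 0.08. ADAMTS8, the one of largest difference among those of at least 1 CPM, had 3.36 ± 2.80 CPM in high IMF and 4.55 ± 1.602 CPM in low IMF (SD, n = 6 each; log2FC 0.43, SE 0.51, adjusted p = 0.805 by edgeR). The 7 ADAMTS-like proteins, which share the ancillary domains but have no protease domain, had a median log2FC of 0.24, with 6 higher in low IMF and 0 past the unadjusted threshold. PAPLN, which encodes papilin, led them at 0.33 (SE 0.29, adjusted p = 0.714 by edgeR).

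Of 12 matrix metalloproteinase genes and RECK tested, 1 passed the unadjusted threshold, against 10.4% of all genes. This was MMP24, a membrane-anchored metalloproteinase, at 3.29 to 4.17 CPM in high IMF and 4.68 to 6.68 CPM in low IMF, with no overlap, as for 0.659% of all genes tested (log2FC 0.59, SE 0.12, adjusted p = 0.19 by edgeR, past the threshold by DESeq2). The 8 ADAM sheddases tested, which cut proteins from the cell surface, were split 4 and 4, with a median log2FC of −0.05. ADAM8, a sheddase of leukocytes, was the 1 gene past the unadjusted threshold and had the largest difference of the list (0.91 ± 0.92 CPM in high IMF, highest in pig 6, and 0.41 ± 0.14 CPM in low IMF, SD, n = 6 each; log2FC −1.14, SE 0.50, adjusted p = 0.463 by edgeR). ADAM15, the largest of those with a mean of at least 1 CPM, had a log2FC of 0.24 (SE 0.18, adjusted p = 0.669 by edgeR).

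The substrates of the proteases gave 0 calls by edgeR or DESeq2. Of 16 proteoglycan and matrix genes tested, 11 were higher in low IMF and 5 in high IMF, against 51.6% of all genes higher in high IMF. Their median log2FC was 0.31, against −0.01 over all genes. The unadjusted threshold was passed by 2 higher in low IMF and 1 higher in high IMF, against 10.4% of all genes in either direction. VCAN, which encodes versican, had 48.0 ± 17.6 CPM in high IMF and 46.7 ± 7.86 CPM in low IMF (SD, n = 6 each), while ACAN, which encodes aggrecan, was at 0 to 0.51 CPM. THBS1 had the largest difference in the list (log2FC −1.83, SE 0.62, adjusted p = 0.427 by edgeR), with its highest levels in pigs 1 and 6, as given above.

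ADAMTS1 was next set against each relative over the pigs. Because the groups do not overlap in ADAMTS1, correlations of log2 CPM were computed within each group of 6 pigs, with exact two-sided permutation p-values over 720 pairings, whose smallest possible value is 0.00139. With 8 relatives and 7 marker lists in both groups, 30 relations were tested and 0 passed an adjusted p of 0.05, while 3 had an unadjusted p of at most 0.05.

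The strongest relation was with TIMP4, and it was negative. In the high IMF group, Pearson's r was −0.99 (exact permutation p = 0.00278, adjusted p = 0.0833) and Spearman's rho was −0.943 (exact p = 0.0167, adjusted p = 0.5). Without pigs 1 and 5, the farthest from the median of ADAMTS1, r was still −0.99 over 4 pigs. Pigs 1, 4 and 6, with the highest ADAMTS1, had the 3 lowest TIMP4 levels of their group. In the low IMF group r was −0.191 (exact permutation p = 0.728, adjusted p = 0.949) and rho was 0.0857 (exact p = 0.919, adjusted p = 0.985). Whether the relation differed between the groups was not tested.

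ADAMTS9 and ADAMTS4 had positive r with ADAMTS1 in both groups. For ADAMTS9, r was 0.804 in high IMF (exact permutation p = 0.0431, adjusted p = 0.425; rho 0.771, exact p = 0.103, adjusted p = 0.514) and 0.595 in low IMF (exact p = 0.228, adjusted p = 0.625; rho 0.657, exact p = 0.175, adjusted p = 0.583). With single pigs left out, r with ADAMTS9 ran from 0.547 to 0.942 in high IMF and from 0.492 to 0.811 in low IMF. It was 0.245 in high IMF without pigs 1 and 5 and 0.208 in low IMF without pigs 7 and 11. Those pigs are the farthest from the median of ADAMTS1, so leaving them out narrows its range. Values of r over the 4 pigs left are thus uncertain, here and below. For ADAMTS4, r was 0.757 in high IMF (exact permutation p = 0.103, adjusted p = 0.458; rho 0.657, exact p = 0.175, adjusted p = 0.583) and 0.612 in low IMF (exact p = 0.207, adjusted p = 0.625; rho 0.371, exact p = 0.497, adjusted p = 0.89). In low IMF it was 0.142 without pig 7 alone and turned to −0.409 without pigs 7 and 11. ADAMTS5, the neighbour of ADAMTS1 on the chromosome, had r = −0.285 in high IMF (exact permutation p = 0.589, adjusted p = 0.883; rho −0.429, exact p = 0.419, adjusted p = 0.89) and −0.536 in low IMF (exact p = 0.292, adjusted p = 0.625; rho −0.0286, exact p = 1, adjusted p = 1), and the low IMF value turned to 0.878 without pigs 7 and 11.

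**Figure D4:**
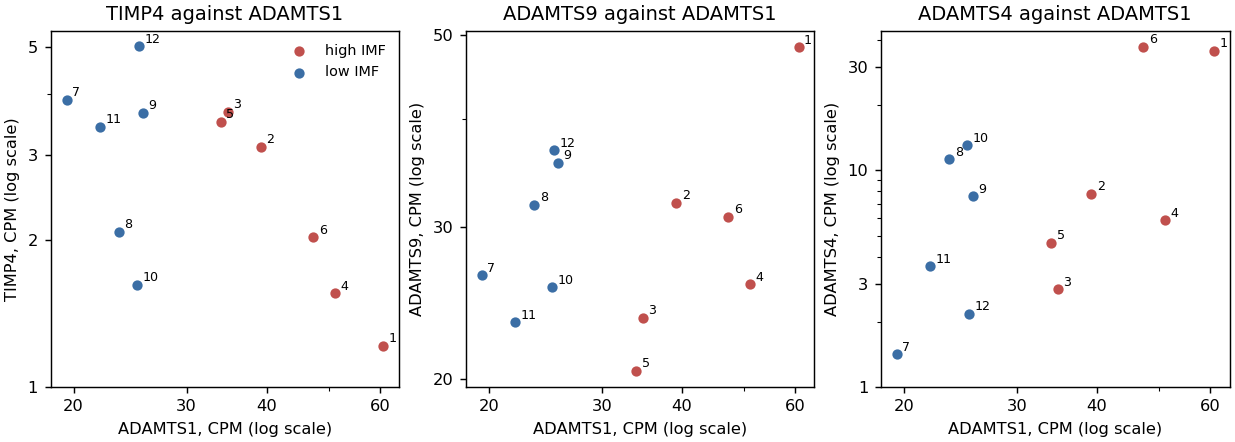
TIMP4, ADAMTS9 and ADAMTS4 (vertical axes) against ADAMTS1 (horizontal axes), both in CPM on log scales, 1 point per pig with its number, high IMF in red and low IMF in blue. In the high IMF group TIMP4 falls as ADAMTS1 rises (r = −0.99), while the 6 low IMF pigs have similar ADAMTS1 and spread in TIMP4 from 1.62 to 5.02 CPM.

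Over all 12 pigs with the group means subtracted, given as a description, r with ADAMTS1 was 0.751 for ADAMTS9, 0.692 for ADAMTS4, 0.525 for TIMP1, 0.374 for ADAMTS2, 0.0517 for TIMP3, 0.00832 for ADAMTS15, −0.341 for ADAMTS5 and −0.716 for TIMP4. For comparison, r with ADAMTS1 ran from −0.631 to 0.62 over the central 95% of 11828 named genes. ADAMTS9, at percentile 99.4 of all genes tested, and ADAMTS4, at 98.9, lay above that range, and TIMP4, at percentile 0.834, lay below it. The high IMF pigs spread more in ADAMTS1, so they weigh more in these values. For TIMP4, r was −0.99 in high IMF but −0.191 in low IMF, and 0 of the 30 relations within groups passed adjustment. ADAMTS5, despite its place beside ADAMTS1, was at percentile 17.6.

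**Figure D5:**
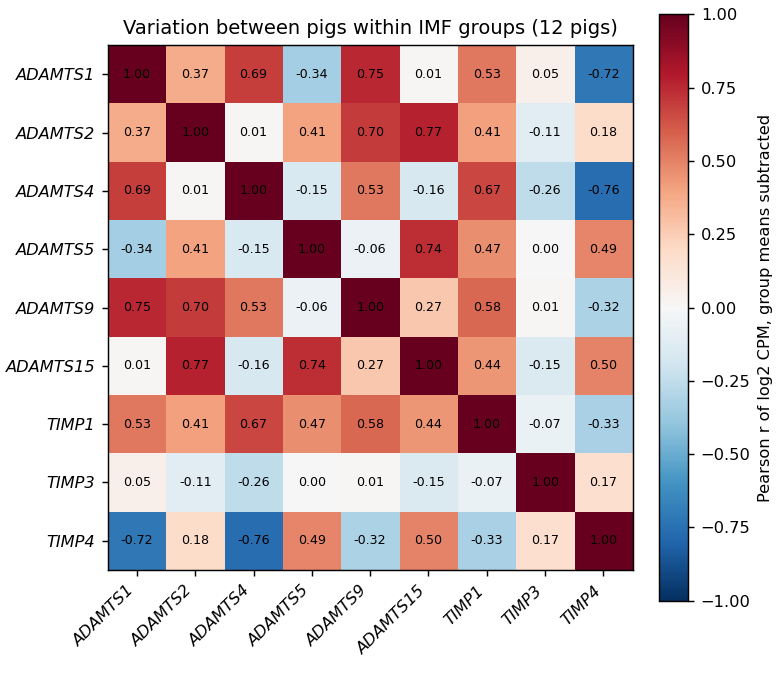
Pearson r of log2 CPM between the ADAMTS and TIMP genes over 12 pigs after subtracting the IMF group means (colour scale from −1 to 1, value in each cell). ADAMTS1 is positive with ADAMTS9 and ADAMTS4 and negative with TIMP4, and TIMP3 is near 0 with most members.

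Among the relatives themselves, 28 pairs were tested over the 12 pigs with 100000 resamples, and 0 passed an adjusted p of 0.05. These tests took no account of the IMF group, so they mix group differences with variation between pigs within groups. The lowest p was for ADAMTS4 and TIMP4 (r = −0.786, permutation p = 0.00226, adjusted p = 0.0633; rho −0.818, permutation p = 0.00193, adjusted p = 0.0511). That relation was −0.704 in high IMF, −0.83 in low IMF and −0.713 without pigs 1 and 6. ADAMTS2 and ADAMTS15 varied together (r = 0.739, permutation p = 0.0049, adjusted p = 0.0686; rho 0.783, permutation p = 0.00365, adjusted p = 0.0511), at 0.682 in high IMF, 0.88 in low IMF and 0.764 without pigs 5 and 12. The aggrecanase ADAMTS4 and TIMP1 had r = 0.703 (permutation p = 0.00951, adjusted p = 0.0888; rho 0.413, permutation p = 0.187, adjusted p = 0.475), which fell to 0.00362 without pigs 1 and 6 and was 0.957 in high IMF but −0.271 in low IMF.

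The named genes whose variation was most like that of ADAMTS1, by r over 12 pigs with group means subtracted, were TMED7 (0.905), SHC1 (0.898), DYRK3 (0.897), ANKAR (0.879), DNAH2 (0.871), LPIN2 (0.87), UBXN11 (0.862) and DBF4 (0.856). ANKAR, DNAH2 and UBXN11 were low, with at most 0.562, 0.268 and 0.581 CPM in any pig. The most negative were SELENBP1 (−0.924), NOX5 (−0.906) and PIK3R3 (−0.899). SELENBP1 varied with opposite sign to ADAMTS1 in both groups, with r of −0.929 in high IMF and −0.988 in low IMF. These genes were picked as extremes of 11828, so no test is given.

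Levels of other cell types and of the immediate early genes were set beside ADAMTS1 in the same way. Each level is a summed CPM, so the most abundant genes of a list weigh most, such as PLIN4 for adipocytes. With the summed skeletal muscle fibre genes, r was −0.171 in high IMF (exact permutation p = 0.779, adjusted p = 0.949; rho −0.0286, exact p = 1) and −0.893 in low IMF (exact p = 0.0208, adjusted p = 0.312; rho −0.886, exact p = 0.0333, adjusted p = 0.5), the latter falling in size to −0.326 without pigs 7 and 11. Pig 7 had the lowest ADAMTS1 of its group and the highest fibre sum of all pigs, at 61149 CPM. Its library had the smallest share of uniquely mapped reads in the study's mapping statistics. With endothelial markers r was −0.809 in high IMF (exact p = 0.0611, adjusted p = 0.425; rho −0.771, exact p = 0.103, adjusted p = 0.514), and with mural cell markers −0.802 (exact p = 0.0708, adjusted p = 0.425; rho −0.771, exact p = 0.103, adjusted p = 0.514). In low IMF the endothelial value was −0.44 (exact p = 0.393, adjusted p = 0.674; rho −0.0857, exact p = 0.919, adjusted p = 0.985), turning to 0.81 without pigs 7 and 11, and the mural value was 0.0846 (exact p = 0.854, adjusted p = 0.949; rho −0.0857, exact p = 0.919, adjusted p = 0.985). With macrophage markers r was positive in high IMF, at 0.565 (exact p = 0.258, adjusted p = 0.625; rho 0.657, exact p = 0.175, adjusted p = 0.583), and negative in low IMF, at −0.712 (exact p = 0.107, adjusted p = 0.458; rho −0.257, exact p = 0.658, adjusted p = 0.898), falling in size to −0.119 without pigs 7 and 11. With adipocyte markers it was −0.665 in high IMF (exact p = 0.15, adjusted p = 0.562; rho −0.829, exact p = 0.0583, adjusted p = 0.514) and −0.154 in low IMF (exact p = 0.769, adjusted p = 0.949; rho 0.0857, exact p = 0.919, adjusted p = 0.985). For fibro-adipogenic markers r was 0.466 in high IMF (exact p = 0.365, adjusted p = 0.674) and −0.378 in low IMF (exact p = 0.476, adjusted p = 0.752). For the immediate early genes r was −0.405 in high IMF (exact p = 0.404, adjusted p = 0.674) and −0.0421 in low IMF (exact p = 0.921, adjusted p = 0.949).

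Summed endothelial markers were 124 to 175 CPM in high IMF and 138 to 219 CPM in low IMF, and summed markers of fibro-adipogenic cells were 888 to 1251 and 1162 to 1457 CPM. Those of mural cells were 301 to 523 and 349 to 594 CPM. These ranges overlapped between the groups. The sums weigh abundant genes most, such as GSN (mean 477 CPM in high IMF) and FBN1 (367 CPM) for fibro-adipogenic cells. For mural cells these were ABCC9 (154 CPM in high IMF) and RGS5 (150 CPM). Of the 9 endothelial genes tested, 7 were higher in low IMF and 2 in high IMF, against 51.6% of all genes higher in high IMF. At an unadjusted p of at most 0.05, 2 passed, both higher in low IMF, against 10.4% of all genes in either direction. These were FLT1, an endothelial receptor with the largest difference of the list (log2FC 0.56, SE 0.21, adjusted p = 0.434 by edgeR), and CDH5 (0.55, SE 0.16, adjusted p = 0.384). Of the 9 fibro-adipogenic genes tested, 8 were higher in low IMF, and 2 of them, GSN (log2FC 0.39, SE 0.16, adjusted p = 0.441 by edgeR) and COL15A1 (0.28, SE 0.10, adjusted p = 0.427), passed an unadjusted p of 0.05. PDGFRA, a receptor of these cells, was the 1 gene of the list higher in high IMF and passed it too (log2FC −0.42, SE 0.17, adjusted p = 0.441 by edgeR). It had 41.9 CPM in pig 6 and at most 25.15 CPM in every other pig. The part of these cell types in the ADAMTS1 difference was not tested.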

How the data were processed

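RNA was measured in SM muscle of 12 pigs. The authors trimmed reads with Trimmomatic, aligned them with HISAT2 to Ensembl Sscrofa11.1, assembled known transcripts with StringTie and deposited raw HTSeq counts per gene, 1 library per pig. The annotation release, the strand option and the treatment of multi-mapped reads are not given in the sources used here.

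From these counts, genes kept by filterByExpr (14262 of 25880) were fitted with edgeR 4.0.16 in R 4.3.3 (TMM scaling, quasi-likelihood test, group as the only term). DESeq2 1.42.0, limma-voom 3.58.1, other scalings and filters, labelled sex or age as a covariate, and the omission of pigs were alternatives. The SE of each log2FC was worked back from the edgeR test, as the size of the log2FC divided by the square root of its F statistic. CPM uses TMM library sizes, and log2 CPM adds a prior count of 2. Permutation p-values were computed with numpy 2.4.6, and ranks and the Benjamini-Hochberg adjustment of the correlations used scipy 1.17.1. The edgeR and correlation steps were tested on simulated data. Depth was 131048805 to 178013997 counts per pig.

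Named genes were all members, the tested gene of largest difference with at least 1 CPM in each list, and the 8 most positive and 3 most negative named correlates of ADAMTS1. VCAN, ACAN, ADAM8, GSN, COL15A1, PLIN4, FBN1, ABCC9, RGS5, CDH5, FOSL2 and NR4A3 were named after their values were seen. Members and lists were chosen with earlier results of these data known. Promoter sequences are not reported here.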

Additional observations from a re-analysis of the deposited data

Results flagged for a closer look

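Of 32 groups examined, 6 pigs each, 3 held a pig farther from the others than Dixon's 95% limit allows, and chance gives about 1 in 20. ADAMTS5 was highest in pig 6 of the high IMF group, at 25.05 CPM against 15.06 CPM in the next pig. The summed mural cell markers were highest in pig 12 of the low IMF group, at 594.1 CPM against 439.6 CPM in the next. MYH11, a smooth muscle myosin, reached 135 CPM in that pig (log2FC 0.86, SE 0.53, adjusted p = 0.591 by edgeR). The summed macrophage markers were highest in pig 7 of the low IMF group, at 158.3 CPM against 112.4 CPM in the next.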

How the results depend on the processing

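The number of genes called by edgeR was 0 under every scaling, filter and covariate, 0 to 1 when single pigs were left out (1 without pig 5 and 1 without pig 10), and 0 by limma-voom. DESeq2 called 58 of the same genes and 65 (0.39%) of all genes with a count that it gave an adjusted p. Of the members it called 1 in both, ADAMTS1, which was chosen for this contrast. Without pigs 1 and 6, an alternative chosen after seeing the data, the log2FC turned to 0.30 for ADAMTS4, 0.21 for TIMP1 and 0.23 for ADAMTS9. ADAMTS9 was also 0.023 by limma-voom, and ran from −0.10 to 0.17 when single pigs were left out. The cause was not tested. The low IMF correlation of ADAMTS1 with TIMP4 was 0.0857 as Spearman's rho and ran from −0.515 to 0.0829 when single pigs were left out. Without the 6 pigs whose Y counts went against their label, also chosen after seeing the data, the 9 members kept their direction, with log2FC values of 0.39 for ADAMTS2, −0.82 for ADAMTS5, −0.18 for ADAMTS9, 0.20 for ADAMTS15 and −0.11 for TIMP3 beside those given above. With 4 high IMF pigs, including pigs 1 and 6, and 2 low IMF pigs, this is a weak check. The correlations within groups were not computed without the 6 pigs, since 4 and 2 pigs would be left. No paired analysis was possible because the groups share no replicate numbers. Each group is 6 pigs, which limits the correlations within groups. The lowest count of any member in any pig was 153, for ADAMTS4.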

Other observations

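The adipocyte markers did not separate the IMF groups. Of 11 adipocyte genes tested, 4 were higher in high IMF and 7 in low IMF, against 51.6% of all genes higher in high IMF. Their median log2FC was 0.14, against −0.01 over all genes. Of the 11, 0 passed an unadjusted p of 0.05, against 10.4% of all genes, and 0 were called by edgeR, as were 0% of all genes. LIPE, the hormone-sensitive lipase, had 4.70 ± 1.47 CPM in high IMF and 6.85 ± 4.72 CPM in low IMF (SD, n = 6 each; log2FC 0.54, SE 0.37, adjusted p = 0.63 by edgeR). ACTA1, the skeletal muscle actin, had a log2FC of 0.29 (SE 0.18, adjusted p = 0.602 by edgeR).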
